A study of Mus musculus with 14 samples.

Results

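The Fc gamma receptor genes are 5 genes of the mouse, Fcgr1, Fcgr3, Fcgr4, Fcer1g and Fcgr2b, taken by name from the array annotation, out of 17031 genes measured in the tumours. All 5 passed the filter on dim probes. They were read by 10 of the 41174 probes of the array: 2 for Fcgr1, 2 for Fcgr3, 1 for Fcgr4 (described in the array files under the older symbol Fcgr3a), 2 for Fcer1g and 3 for Fcgr2b.

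Fc gamma receptors bind the constant part of IgG antibodies and sit mainly on macrophages, monocytes, neutrophils, natural killer cells and B cells. The activating receptors signal through a tyrosine-based activation motif (ITAM) carried by a shared gamma chain, which recruits Syk and leads to phagocytosis, oxidative burst and cytokine release, while the inhibitory receptor carries an ITIM motif and recruits the phosphatase SHIP1. In mouse, Fcgr1 encodes the high-affinity receptor Fc gamma RI, Fcgr3 the low-affinity Fc gamma RIII, Fcgr4 the intermediate-affinity Fc gamma RIV, Fcer1g the gamma chain itself and Fcgr2b the inhibitory Fc gamma RIIB. In macrophages, interferon gamma is a classical inducer of Fc gamma RI, and in mouse the balance of activating to inhibitory receptors is known to govern how well tumour-binding antibodies clear cells.

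The tumours were B16F10, a melanoma line of C57BL/6 mice, grown in C57BL/6 hosts and labelled as whole tumour tissue. In 1 arm, called CTL + anti-IFNg here, mice received gp100-specific CD90.1+ CTLs (cytotoxic T lymphocytes, activated in culture) and an antibody to interferon gamma, injected on days 0 and 2. In the CTL + IgG arm they received the CTLs and control rat IgG on the same days. In the CTL arm they received the CTLs alone, and untreated mice received neither cells nor antibody. Day 0 is the day of transfer. The age and sex of the mice were not stated in the labels. The antibody arms have 3 arrays each, of days 3, 5 and 7, and the CTL and untreated arms 4 each, of days 1, 3, 5 and 7. Every array holds the pooled RNA of 3 tumours (antibody arms) or 4 tumours (CTL and untreated arms), so no arm has a replicate within a day and the 3 days stand in as replicates. Both antibody arms received immunoglobulin, the ligand of these receptors, and the CTL and untreated arms did not.

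Levels are log2 of the processed signal relative to the 75th percentile of the array, so a level of 0 is that percentile. Arrays had 48.9% to 59.7% of their spots well above background and a 75th percentile of signal between 301 and 536. Of the 10 probes of the receptor genes, 9 were well above background on 14 of 14 arrays and the second Fcgr1 probe on 13, and none was saturated on any array. Melanocyte genes were bright in every arm, with a summed relative signal of 1387 to 1599 in CTL + anti-IFNg, 1456 to 1494 in CTL + IgG, 1430 to 1671 in CTL and 1245 to 1772 in untreated tumours, days 3 to 7. The samples are whole tissue, so fewer cells of a type and less RNA per cell cannot be told apart.

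The promoters of Fcgr1, Fcgr4 and Fcgr2b are shown because the first pair had the largest changes and Fcgr2b the smallest. They are RefSeq sequences of build GRCm38.p6, 250 bases before to 50 bases after the start site, printed in the sense of the gene. The first is at chr3:96293920-96294219 (minus strand), the second at chr1:171018676-171018975 (plus strand) and the third at chr1:170976022-170976321 (minus strand). Capitals mark matches to the gamma-activated site TTCNNNGAA or the interferon-stimulated response element GAAANNGAAA, searched on both strands.
Fcgr1: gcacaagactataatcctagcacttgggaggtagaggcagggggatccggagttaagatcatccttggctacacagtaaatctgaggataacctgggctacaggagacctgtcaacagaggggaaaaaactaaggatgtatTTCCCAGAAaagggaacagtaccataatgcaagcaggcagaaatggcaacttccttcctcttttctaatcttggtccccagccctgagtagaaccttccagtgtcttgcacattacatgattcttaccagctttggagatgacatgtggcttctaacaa
Fcgr4: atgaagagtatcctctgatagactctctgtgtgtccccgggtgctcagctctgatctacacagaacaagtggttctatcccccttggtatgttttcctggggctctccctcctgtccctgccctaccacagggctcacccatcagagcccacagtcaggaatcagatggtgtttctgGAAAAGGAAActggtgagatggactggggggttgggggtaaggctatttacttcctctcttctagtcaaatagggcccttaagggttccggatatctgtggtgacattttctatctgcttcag
Fcgr2b: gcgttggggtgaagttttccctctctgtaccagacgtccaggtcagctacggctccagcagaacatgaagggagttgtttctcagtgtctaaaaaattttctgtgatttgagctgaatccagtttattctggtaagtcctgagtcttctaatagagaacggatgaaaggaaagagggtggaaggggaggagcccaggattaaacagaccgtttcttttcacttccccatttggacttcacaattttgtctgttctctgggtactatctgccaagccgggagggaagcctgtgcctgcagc
Fcgr1 held 1 TTCNNNGAA match, TTCCCAGAA, whose first base is at position -109 from the start site, and Fcgr4 held 1 GAAANNGAAA match, GAAAAGGAAA, at position -73. These letters were not found in the windows of Fcgr3, Fcer1g and Fcgr2b. Of 32851 mouse promoters of the same length, 8.3% held the first motif and 3.44% the second. The core GAGGAA, bound by the myeloid factor PU.1, was found once in Fcgr1, Fcgr3 and Fcgr4, on the minus strand, and in 28.3% of all promoters. No match overlapped another, and a match is letters in a window, not a measured binding site.

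The first comparison asked what CTL transfer did to the receptor genes over days 3, 5 and 7. All 3 activating receptors, the gamma chain and the inhibitory receptor rose, the activating receptors more than the inhibitory one. Of the 5 genes, 5 were called higher, where 10.1% of all genes were (limma, adjusted p under 0.05). The CTL arrays of each did not overlap its untreated ones, and the share of all genes without overlap was not counted. Leaving out any 1 day kept all 5 calls.

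Fcgr1, the high-affinity receptor, had levels of 3.19, 3.13 and 2.26 in CTL tumours on days 3, 5 and 7, against -0.47, -0.64 and -0.98 in untreated tumours. The lowest CTL array lay far above the highest untreated one. The change was 3.56 ± 0.23 log2 (SE, n = 3 days), or 11.8-fold (limma, adjusted p = 6.90e-05). The second Fcgr1 probe, which is dimmer and lies elsewhere in the gene, gave 3.38.

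Fcgr4, the receptor for mouse IgG2a and IgG2b, had 1.96, 1.56 and 0.68 in CTL tumours, against -2.68, -2.77 and -2.34 in untreated tumours. It changed by 4.00 ± 0.30, or 15.96-fold (limma, adjusted p = 0.000152), and its difference was smaller on day 7 (3.02) than on days 3 (4.64) and 5 (4.33). Its mean change was above that of Fcgr1, but below it on day 7, when Fcgr1 had 3.24, and with normexp, which gave 2.90 for Fcgr4 and 2.96 for Fcgr1. Fcgr3, the low-affinity receptor also carried by natural killer cells, had 2.12, 2.52 and 2.01 in CTL tumours, against -0.58, -0.35 and -1.07 in untreated tumours. The arms were far apart on each day. Its change of 2.89 ± 0.16, or 7.40-fold (limma, adjusted p = 3.83e-05), was widest on day 7, at 3.08, and its second probe gave 2.36.

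Fcer1g, the gamma chain that the activating receptors need at the cell surface, had 3.03, 3.70 and 2.78 in CTL tumours, against 0.39, 0.29 and 0.55 in untreated tumours. It rose by 2.76 ± 0.25, or 6.79-fold (limma, adjusted p = 0.000306), with its highest array on day 5, and the change on its second probe was 2.95. Fcgr2b, the inhibitory receptor, had 1.84, 1.47 and 1.02 in CTL tumours, against -0.38, -0.35 and -0.67 in untreated tumours. The arms did not overlap here either, but lay closer together, with a change of 1.91 ± 0.13, or 3.77-fold (limma, adjusted p = 0.000106). The main Fcgr2b probe is spotted 10 times on each array, and those spots had an SD of 0.024 to 0.073 log2 within an array. The other Fcgr2b probes gave 1.95 and 1.94. Fcgr2b and Fcgr3 are near-identical over part of their coding sequence, probe sequences were not used here, and cross-hybridisation was not tested.

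**Figure D1:**
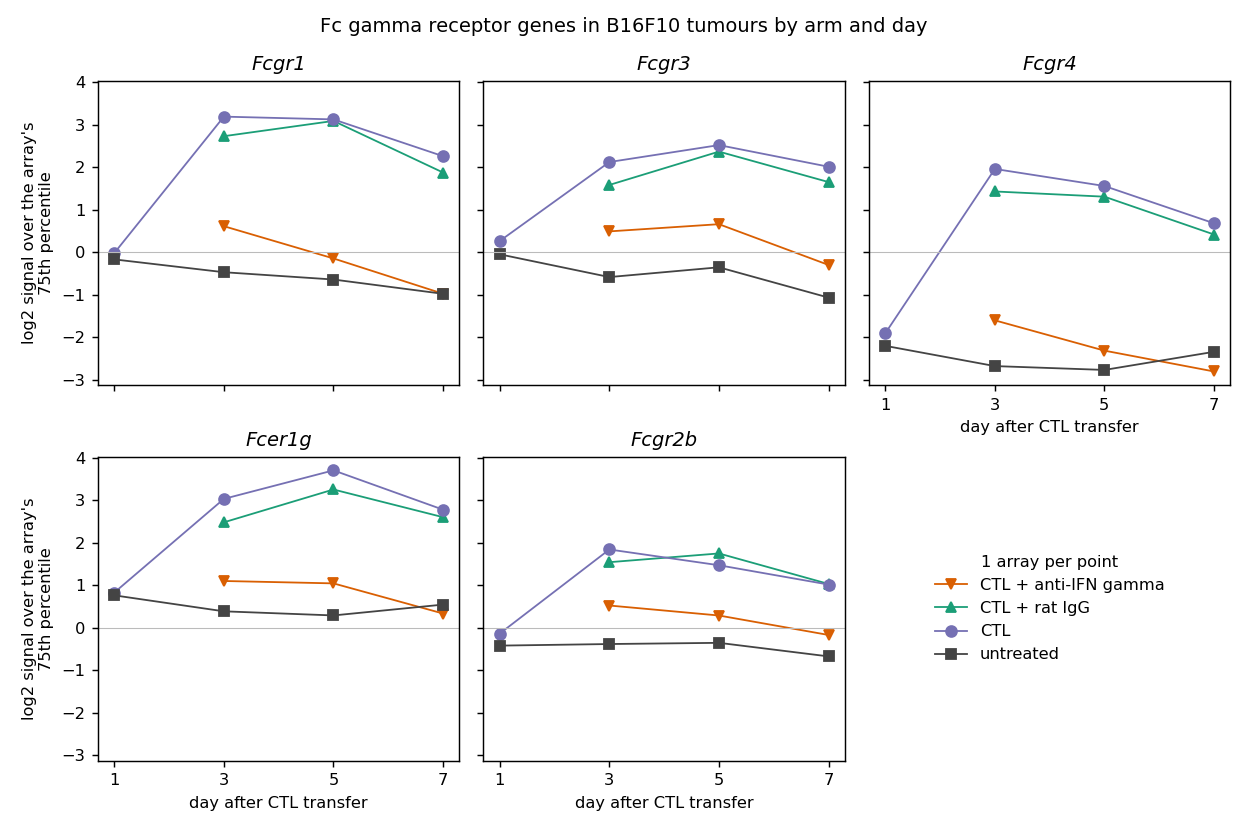
Level of each gene (log2 processed signal over the array's 75th percentile, brightest probe) against the day after CTL transfer, 1 array per point, 1 line per arm. On days 3, 5 and 7 the CTL + IgG and CTL lines run together and the CTL + anti-IFNg line lies below both, meeting the untreated line on day 7 for Fcgr1, where these arms read -0.97 and -0.98.

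On day 1, with 1 array per arm and no test of its own, CTL and untreated tumours were close. Fcgr1 read -0.02 in CTL and -0.17 in untreated tumours, Fcgr4 -1.91 and -2.20, Fcgr3 0.27 and -0.05, Fcer1g 0.83 and 0.76, and Fcgr2b -0.14 and -0.42. All 5 day 1 differences were above 0, from 0.07 for Fcer1g to 0.31 for Fcgr3. The difference between the change of days 3 to 7 and that of day 1 was called higher for 4 of the 5 genes, where 0.834% of all genes were (limma interaction term, 14 arrays). It was 3.41 ± 0.45 for Fcgr1 (adjusted p = 0.0161), 2.57 ± 0.33 for Fcgr3 (adjusted p = 0.0146), 3.70 ± 0.60 for Fcgr4 and 1.63 ± 0.27 for Fcgr2b (both adjusted p = 0.0370). Fcer1g had 2.70 ± 0.49 (adjusted p = 0.0514). These calls rest on a single pair of day 1 arrays: without day 3 none of the 5 was called, and likewise without day 5, without the day term or with normexp (limma), and with the CTL and untreated arrays alone the adjusted p values were 0.180 or more. Of all genes 173 were called in the main fit. Far fewer were called without the day term, with normexp or with those arrays alone (counts, and the range with a day left out, are given at the end).

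CTL + IgG tumours were set against CTL tumours to see whether control rat IgG changed the genes of its receptors. Fcgr1 read 2.73, 3.09 and 1.88 in CTL + IgG tumours, against the CTL values above, Fcgr4 1.43, 1.31 and 0.42, Fcgr3 1.58, 2.37 and 1.65, Fcer1g 2.48, 3.25 and 2.60, and Fcgr2b 1.54, 1.75 and 1.03. The arms overlapped for every gene. Within days, CTL + IgG lay below CTL on 3 of 3 days for Fcgr1, Fcgr4, Fcgr3 and Fcer1g, by differences of -0.55 to -0.04, while Fcgr2b had -0.30, 0.28 and 0.01. The second probes of Fcgr1 and Fcgr3 went the other way on day 5. They read -0.37 and 0.60 in CTL + IgG tumours, against -0.46 and 0.39 in CTL tumours. Changes were -0.29 ± 0.23 for Fcgr1, -0.35 ± 0.30 for Fcgr4, -0.35 ± 0.16 for Fcgr3, -0.39 ± 0.25 for Fcer1g and -0.00 ± 0.13 for Fcgr2b, with none called (limma, adjusted p from 0.287 to 0.994) and 0 of 5 at an unadjusted p under 0.05, where 18.8% of all genes were. Of all genes 0.0117% were called in either direction. The 95% intervals were widest for Fcgr4, at -1.04 to 0.35, and narrowest for Fcgr2b, at -0.31 to 0.30, so with 3 days changes inside those bounds are not excluded.

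The antibody to interferon gamma was compared with control IgG, both given with CTLs. All 5 genes were lower with the antibody, Fcgr4 and Fcgr1 most. Of the 5, 5 were called lower, where 5.93% of all genes were (limma). Each had CTL + anti-IFNg arrays that did not overlap the IgG arrays, and the share of all genes without overlap was not counted. Without day 5, however, none of the 5 calls held, at adjusted p values of 0.058 to 0.092 and changes of -3.13 to -1.11, and with the 2 day 1 arrays added to the fit none held either, at 0.055 to 0.076 (limma, 5 of 5 still negative). Calls over all genes fell in both fits too, from 2136 in the main fit (counts are given at the end), so the loss was not particular to these genes.

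Fcgr4 read -1.60, -2.31 and -2.80 in CTL + anti-IFNg tumours on days 3, 5 and 7, against 1.43, 1.31 and 0.42 in CTL + IgG tumours. Every array with the antibody to interferon gamma was below every IgG array. The change was -3.29 ± 0.30 (SE, n = 3 days), 9.80-fold lower (limma, adjusted p = 0.00128). Fcgr1 read 0.61, -0.14 and -0.97 in CTL + anti-IFNg tumours, against 2.73, 3.09 and 1.88 in CTL + IgG tumours. It fell by 2.73 ± 0.23, 6.66-fold (limma, adjusted p = 0.000857), and by 2.72 on its second probe.

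Fcer1g had 1.10, 1.04 and 0.34 with the antibody to interferon gamma, against 2.48, 3.25 and 2.60 with IgG. The difference was -1.38 on day 3, -2.21 on day 5 and -2.27 on day 7. The gamma chain fell by 1.95 ± 0.25, 3.87-fold (limma, adjusted p = 0.00359), and equally on its second probe (1.95). Fcgr3 had 0.49, 0.66 and -0.30 with the antibody to interferon gamma, against 1.58, 2.37 and 1.65 with IgG, a change of -1.58 ± 0.16, 3.00-fold lower (limma, adjusted p = 0.00174), with -1.21 on its second probe. Fcgr2b had 0.52, 0.29 and -0.17, against 1.54, 1.75 and 1.03 with IgG. By the brightest probe of each gene the inhibitory receptor changed least, by -1.23 ± 0.13, 2.34-fold lower (limma, adjusted p = 0.00198). Its other probes gave -1.22 and -1.20, about the same as the second Fcgr3 probe.

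**Figure D2:**
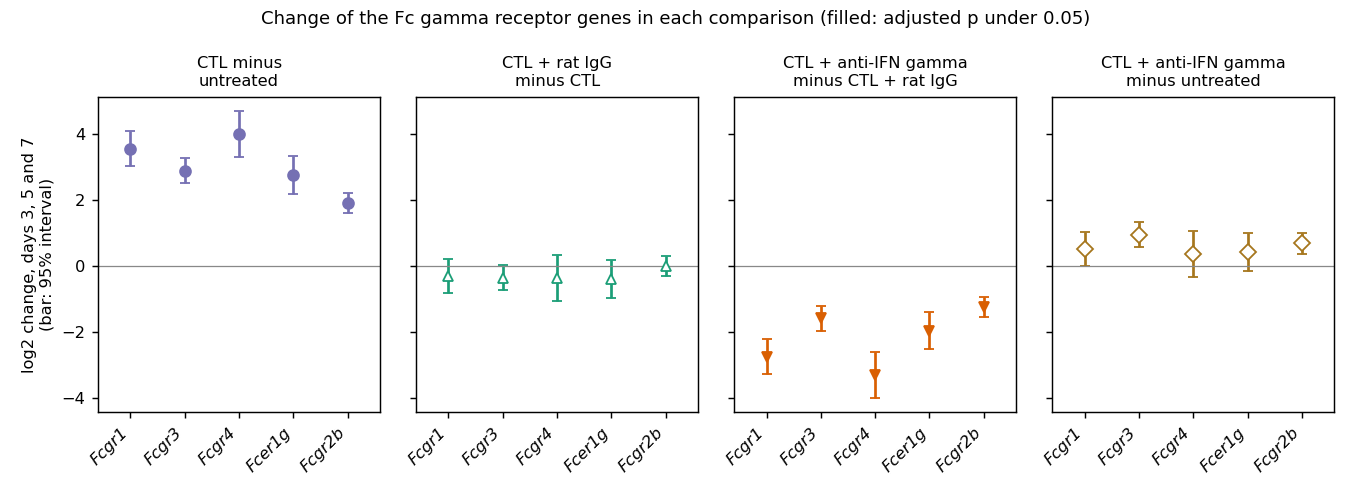
Log2 change of each gene in 4 comparisons over days 3, 5 and 7, with the 95% interval of the limma fit. Filled symbols passed an adjusted p of 0.05: all 5 genes in CTL minus untreated (1.91 to 4.00) and in CTL + anti-IFNg minus CTL + IgG (-3.29 to -1.23), and none in the other comparisons.

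CTL + anti-IFNg tumours were also set against untreated tumours, to see how far the receptor genes stood from their level without transferred T cells. These arms differ in the cells, in the antibody given and in the number of tumours pooled. Fcgr3 was 0.95 ± 0.16 higher and Fcgr2b 0.68 ± 0.13 higher, and theirs were the arms that did not overlap (not counted over all genes). Neither passed over all genes (limma, adjusted p = 0.122 and 0.187), where 0.153% of genes were called higher. Fcgr1 had 0.53 ± 0.23, Fcer1g 0.42 ± 0.25 and Fcgr4 0.36 ± 0.30, with adjusted p values of 0.710 to 0.931. None of the 5 was called and 3 of 5 had an unadjusted p under 0.05, where 6.90% of all genes did.

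As a share of the log2 distance between untreated and CTL + IgG tumours, the CTL + anti-IFNg mean lay at 37.6% for Fcgr3, 35.8% for Fcgr2b, 17.7% for Fcer1g, 16.1% for Fcgr1 and 9.75% for Fcgr4. That share shrank with the day in all 5 genes. For Fcgr4 it was 26.2% on day 3, 11.1% on day 5 and -16.8% on day 7, the day on which the antibody array read below the untreated one. Fcgr1 had 33.8%, 13.3% and 0.0508%, and Fcer1g 34.1%, 25.5% and -10.2%. Fcgr3 still stood at 28.3% and Fcgr2b at 29.6% on day 7. Each of these daily values comes from 3 arrays without replicates, and no test was made of them. The antibody was last injected on day 2. Day 7 minus day 3 was -1.59 for Fcgr1 and -1.20 for Fcgr4 in CTL + anti-IFNg tumours, -0.85 and -1.01 in CTL + IgG tumours, and -0.93 and -1.28 in CTL tumours.

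The order of the arms by mean level was the same for all 5 genes over days 3 to 7. CTL was highest, then CTL + IgG, then CTL + anti-IFNg, then untreated. For Fcgr2b, however, CTL and CTL + IgG were level, at 1.44 each, and changed places with normexp and in other settings. For Fcgr1 these arms changed places with normexp too. The CTL and CTL + IgG arms overlapped for all 5 genes. CTL + anti-IFNg and untreated arms overlapped for Fcgr1, Fcgr4 and Fcer1g. The largest spread within an arm was that of Fcgr1 in CTL + anti-IFNg tumours (SD 0.79, n = 3 days) and the smallest that of Fcer1g in untreated tumours (SD 0.13, n = 3 days).

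The change of each activating gene was then set against that of Fcgr2b on the same arrays, which shows unequal change within the array. After CTL transfer the gain over Fcgr2b was 2.08 ± 0.65 log2 for Fcgr4, 1.64 ± 0.27 for Fcgr1, 0.97 ± 0.46 for Fcgr3 and 0.85 ± 0.64 for Fcer1g (SD, n = 3 days), above 0 on 3 of 3 days for each. With the antibody to interferon gamma against IgG, the loss beyond Fcgr2b was -2.07 ± 0.08 for Fcgr4, -1.51 ± 0.36 for Fcgr1, -0.73 ± 0.35 for Fcer1g and -0.36 ± 0.35 for Fcgr3, below 0 on 3 of 3 days for each. With the mean of all probes of a gene, the value for Fcgr3 was -0.18, below 0 on 2 of 3 days. The exact sign-flip permutation test over 3 days gave p = 0.25 for all 8, two-sided, which is the smallest p it allows (0.25 after Benjamini-Hochberg adjustment over the 4 genes of a comparison). With IgG against CTL the 4 genes stood below Fcgr2b in change on 3 of 3 days, by -0.29 to -0.39, except that with normexp Fcgr1 did so on 2. Against untreated tumours, CTL + anti-IFNg tumours gave 0.27 ± 0.10 for Fcgr3 and values from -0.33 to -0.16 for Fcgr4, Fcer1g and Fcgr1, which were above 0 on 1 of 3 days.

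The same was done with Csf1r, the macrophage growth factor receptor, and Ptprc, the leukocyte antigen CD45, a pair of genes chosen after their values were seen. Csf1r rose by 2.23 in CTL tumours and fell by 1.12 with the antibody to interferon gamma, and Ptprc rose by 3.56 and fell by 1.77. Fcgr4 gained 1.77 ± 1.19 and Fcgr1 1.33 ± 0.59 on Csf1r after CTL transfer (SD, n = 3 days), on 3 of 3 days, and with the antibody to interferon gamma they changed by -2.17 and -1.61 relative to it, below 0 on 3 of 3 days. Fcer1g (-0.83) and Fcgr3 (-0.46) were also below 0 on 3 of 3 days there, and Fcgr2b (-0.10) on 2. Fcgr3 and Fcer1g gained 0.66 ± 0.18 and 0.54 ± 0.77 on Csf1r, the second on 2 of 3 days, and Fcgr2b had -0.31 ± 0.64. These differences depend on the marker. Of the measured macrophage markers listed further below, Aif1 alone changed more than Fcgr1, rising by 3.85 and falling by 2.89, and none changed more than Fcgr4. Aif1 and Msr1 (3.27) both rose more than Fcgr3, Fcer1g and Fcgr2b. With the antibody to interferon gamma Aif1, Itgam (-2.69) and Msr1 (-2.06) fell more than Fcer1g and Fcgr3. Cd14 (-1.62) fell slightly more than Fcgr3, and the other macrophage markers fell less than Fcgr3 or not at all. Against Ptprc, no receptor gene gained on 3 of 3 days after CTL transfer: Fcgr1 stood at -0.00 ± 0.26, Fcgr4 at 0.44 ± 0.57 and Fcgr2b at -1.64 ± 0.08. With the antibody, Fcgr4 fell by 1.52 and Fcgr1 by 0.96 beyond Ptprc on 3 of 3 days, while Fcgr3 (0.19) and Fcgr2b (0.55) fell less than Ptprc on 3 of 3 days. The exact two-sided p was 0.25 or more for all 10 differences of a comparison, and 0.25 is the smallest that 3 days allow, before or after adjustment.

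**Figure D3:**
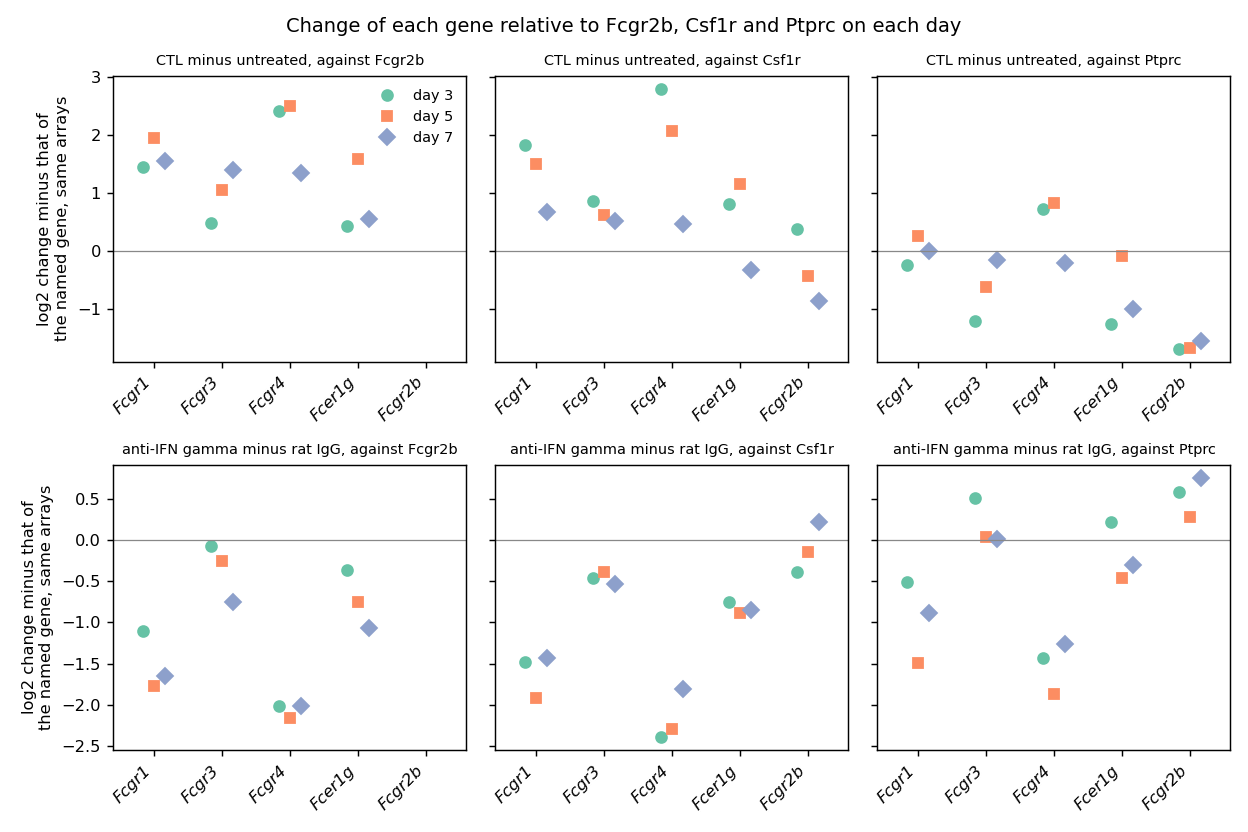
Log2 change of each receptor gene minus that of Fcgr2b, Csf1r or Ptprc on the same arrays, 1 point per day, for CTL minus untreated (top) and CTL + anti-IFNg minus CTL + IgG (bottom). Fcgr4 and Fcgr1 lie below 0 on all days in all 3 bottom panels, with means of -2.07 and -1.51 against Fcgr2b, and above 0 in the top panels for Fcgr2b and Csf1r.

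Genes that act with the receptors were taken from lists chosen with earlier results of these data known. Of 16 measured genes of ITAM signalling, 13 rose in CTL tumours and 0 fell, with a median change of 2.24 against -0.10 for all genes, and 10 fell with the antibody to interferon gamma, with a median of -1.49 against 0.06 for all genes. The exchange factor Vav1, which links the receptor to actin, rose by 3.23 ± 0.17 and fell by 2.14 ± 0.17, and Btk, a kinase upstream of phospholipase C, rose by 2.46 ± 0.16 and fell by 1.65 ± 0.16 (limma, adjusted p of 0.00136 or less). Syk, the kinase docked by the gamma chain and named for that role, rose by 1.63 ± 0.18 and fell by 0.93 ± 0.18. Cybb, a subunit of the phagocyte oxidase also named for its role, rose by 5.18 ± 0.58, and with the antibody had -1.86 ± 0.58 (adjusted p = 0.0758). Plcg2 was called in neither comparison.

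Of 10 measured genes of inhibitory signalling, 8 rose in CTL tumours and 0 fell, with a median of 1.47. With the antibody to interferon gamma 6 fell and 1, Sirpa, rose (0.47 ± 0.12), with a median of -0.98. Inpp5d, which encodes the SHIP1 phosphatase recruited by Fc gamma RIIB, rose by 2.24 ± 0.17 and fell by 1.72 ± 0.17. Pirb, an inhibitory receptor of myeloid cells, rose by 3.05 ± 0.25 and fell by 2.04 ± 0.25. Cd300a, which no untreated array of days 3 to 7 measured well above background, was called higher and fell by 1.80 ± 0.24 (limma, adjusted p of 0.00405 or less for the 3 genes). Of 10 other measured adapters and receptors, on a list of ITAM partners and related genes, 8 rose and 7 fell with the antibody. Cd247 was counted both times, and no array of the lower arm measured it well above background. Clec7a, the beta-glucan receptor Dectin-1, rose by 4.55 ± 0.33 and fell by 2.38 ± 0.33. Clec4n, Dectin-2, which signals through the same gamma chain, rose by 2.23 ± 0.15 and fell by 0.95 ± 0.15. Clec4e, Mincle, named here because it too uses that chain, rose by 4.37 ± 0.44 and fell by 3.14 ± 0.44, and Tyrobp, the DAP12 adapter, rose by 2.62 ± 0.20 and fell by 1.68 ± 0.20.

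Of 12 other Fc receptor genes listed, 4 were measured and 1 was called, Trim21, the cytosolic antibody receptor, which rose by 2.39 ± 0.36 and fell by 2.36 ± 0.36. Fcgrt, the neonatal Fc receptor, bright enough on 14 of 14 arrays, had 0.21 ± 0.21 in CTL tumours and -0.03 ± 0.21 with the antibody. Fcer1a, the IgE-binding chain that also pairs with the gamma chain, had 0.23 ± 0.17 and -0.31 ± 0.17 and was well above background on 5 arrays only. All 8 listed interferon gamma response genes rose (median 4.86) and all 8 fell with the antibody (median -4.15), with Irf1 at 3.86 ± 0.51 and -3.62 ± 0.51. These counts were lower without day 5. Then 8 ITAM, 4 inhibitory, 7 adapter and 4 interferon gamma response genes were called higher in CTL tumours, and 2, 0, 1 and 0 called lower with the antibody to interferon gamma (limma). Calls over all genes also fell with any 1 day left out, from 5363 in CTL tumours and 2136 with the antibody (ranges are given at the end), so the drop was not particular to these lists.

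**Figure D4:**
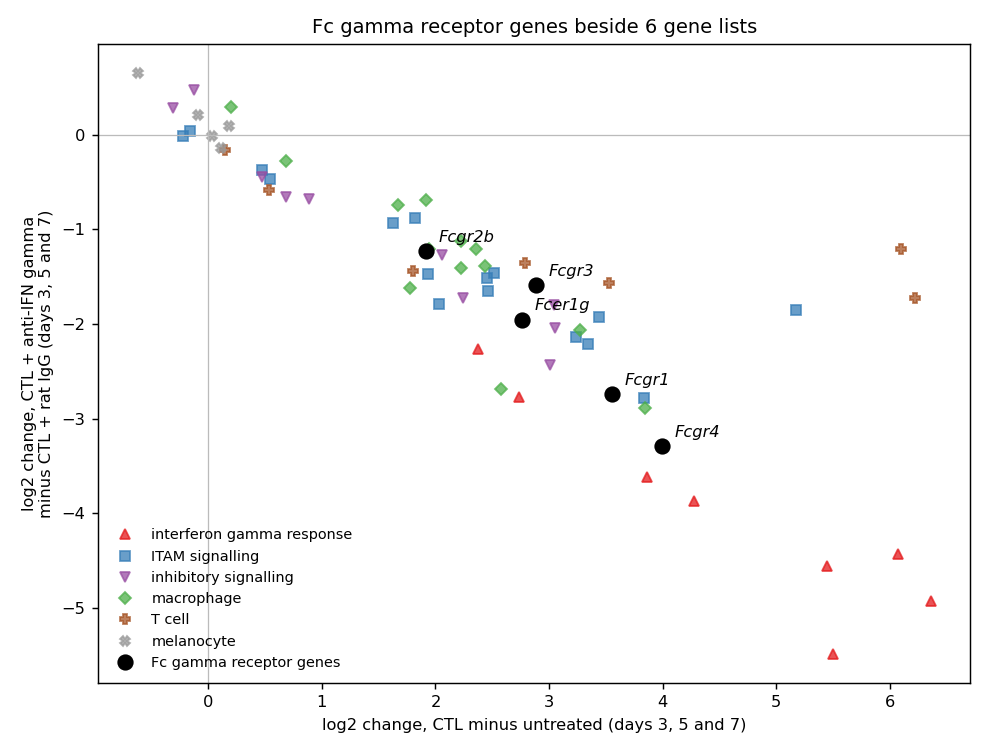
Log2 change with the antibody to interferon gamma (CTL + anti-IFNg minus CTL + IgG, vertical) against the log2 change after CTL transfer (CTL minus untreated, horizontal), 1 point per gene, over days 3, 5 and 7. The receptor genes (black) lie among ITAM, inhibitory and macrophage genes, between melanocyte genes near 0 and interferon gamma response genes, whose medians are 4.86 and -4.15.

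Markers of cells that carry these receptors moved in the same comparisons, and their part in the results was not tested. Of 13 measured macrophage markers 11 rose in CTL tumours and 9 fell with the antibody to interferon gamma. Their summed relative signal was 41.3 to 71.4 in CTL + anti-IFNg, 66.6 to 133 in CTL + IgG, 94.8 to 133 in CTL and 25.3 to 28.3 in untreated tumours, days 3 to 7. Msr1, a scavenger receptor, rose by 3.27 ± 0.20 and fell by 2.06 ± 0.20, and Aif1 by 3.85 ± 0.27 and 2.89 ± 0.27. All 4 pan-leukocyte genes rose and fell likewise, with sums of 3.59 to 9.41 in CTL + anti-IFNg, 18.0 to 38.1 in CTL + IgG, 23.9 to 43.1 in CTL and 2.13 to 2.59 in untreated tumours. Without day 5, 7 macrophage and 4 pan-leukocyte genes were called higher in CTL tumours and 0 and 0 lower with the antibody (limma). Calls over all genes fell without that day as well.

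Of 4 measured natural killer genes 4 rose and 3 fell, and their sums were 0.394 to 1.40 in CTL + anti-IFNg, 1.88 to 5.39 in CTL + IgG, 2.53 to 5.24 in CTL and 0.103 to 0.173 in untreated tumours. In untreated tumours only Nkg7 was well above background on any array of days 3 to 7, so 3 of the 4 that rose were set against background, and no CTL + anti-IFNg array had Klrb1c or Klra8 well above it, so the same holds for 2 of the 3 that fell. Of 7 T cell genes 6 rose and 3 fell, with sums of 1.72 to 3.18 in CTL + anti-IFNg, 3.26 to 8.23 in CTL + IgG, 4.73 to 10.1 in CTL and 1.06 to 1.86 in untreated tumours. Of 3 measured neutrophil genes 1 was called higher, Csf3r, and 2 lower, Csf3r and S100a8, each against an arm where no array measured it well above background (Csf3r passed the filter with 3 arrays of CTL and CTL + IgG tumours). Their sum was 0.216 to 0.603 in CTL + anti-IFNg, 1.16, 2.19 and 50.02 in CTL + IgG on days 3, 5 and 7, 1.21 to 6.44 in CTL and 0.209 to 0.957 in untreated tumours. Of 5 dendritic cell genes 2 rose, Ccr7 and Itgax, and 1 fell, Ccr7, with sums of 0.734 to 1.03 in CTL + anti-IFNg, 0.906 to 1.22 in CTL + IgG, 1.15 to 1.33 in CTL and 0.621 to 0.719 in untreated tumours. B cell and mast cell lists had 1 gene each in either direction, Cd79b of 4 measured (not well above background in either lower arm) and Hdc of 3, and of 5 melanocyte genes none was called (limma, adjusted p of 0.117 or more). The B cell sums were 0.184 to 0.264 in CTL + anti-IFNg, 0.318 to 0.444 in CTL + IgG, 0.446 to 0.529 in CTL and 0.266 to 0.485 in untreated tumours. Those of the mast cell genes were 0.131 to 0.184 in CTL + anti-IFNg, 0.465 to 2.02 in CTL + IgG, 0.253 to 1.46 in CTL and 0.125 to 0.25 in untreated tumours. The T cell genes Cd3g and Cd8a, the dendritic cell gene Ccr7, the macrophage gene Itgam and the adapter Cd247 were likewise called higher against untreated arrays at background. Itgam and Cd247 were also called lower against CTL + anti-IFNg arrays at background. Itgam, Cd247, Klrb1c, Klra8 and Cd79b passed the filter on CTL and CTL + IgG arrays alone. Without day 5, when fewer of all genes were called too, 3 natural killer, 2 T cell and 0 neutrophil genes were called higher in CTL tumours, and 1, 0 and 0 lower with the antibody.

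The genes whose levels were most like each member over 14 arrays were named by Pearson's r, as a description, since all genes share the arrays and the arms. Among the genes nearest to Fcgr1 were the interleukin 4 receptor Il4ra (r = 0.990) and Ifi209 (r = 0.990), an interferon-inducible gene. Fcgr4 was nearest to Tmem229b (0.994), Ifi209 (0.991) and Apol9b (0.990). Fcgr3 was nearest to Myo1g, a myosin of blood cells (0.991), Cd48 (0.990) and Selplg (0.989), the ligand of P-selectin. Fcer1g was nearest to Pirb (0.995), an inhibitory receptor, Lpxn (0.993) and Efhd2 (0.993), and Fcgr2b to Bst1 (0.989), Clec7a (0.988) and the Toll-like receptor Tlr2 (0.987). Among the 5 members r was highest between Fcgr1 and Fcgr4 (0.989) and lowest between Fcgr3 and Fcgr4 (0.937).

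Except for Fcgr1, the genes share a stretch of chromosome 1. Per the array files (mm8), the probes used lie at 172797532 to 172797591 for Fcgr2b, 172866282 to 172866341 for Fcgr4, 172888191 to 172888266 for Fcgr3 and 173066338 to 173066397 for Fcer1g, within 268931 bases. Fcgr1 was read on chromosome 3, at 96368314 to 96368360. Of 21 other measured genes in that stretch or within 250000 bases of it, 1 rose in CTL tumours, Usf1 (0.87), and 2 were lower with the antibody to interferon gamma, Usf1 (-0.62) and AK051986 (-3.10). The 5 that lie between the receptor genes, among them Sdhc and Nr1i3, were called in neither comparison, with changes from -0.06 to 0.67 in CTL tumours. Exon and intron positions of the probes were not analysed here.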

How the data were processed

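Agilent 1-colour arrays (14, on 4 slides) were read with Agilent Feature Extraction, in version 9.5 per the submitters' processing notes and 9.5.3.1 per the file headers. Intensity in the deposited scanner files is linear and, per the file headers, already corrected for background by the program. A second deposited table, of log2 values by the authors, matched the log2 processed signal of each array up to a constant (r = 1.00 over 41174 probes), with the 75th percentile at about 0 and column medians from -3.54 to -3.14.

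From the scanner files, log2 processed signal minus the 75th percentile of the 43379 non-control spots was taken. Outlier spots were left out, spots of a probe averaged, and probes kept where well above background on at least 3 arrays and measured on all. The brightest probe stood for a gene (17031 genes). For 24375 probes the name came from the gene table through an accession, and 16799 kept the file's name.

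The test was limma's (version 3.58.1, R 4.3.3; lmFit, then eBayes), with terms for arm and day, on the 12 arrays of days 3, 5 and 7, and on 14 arrays for the interaction with day 1. P-values were adjusted over all genes (Benjamini-Hochberg, two-sided, threshold 0.05), and SEs come from the spread of same-day differences between pools, not between mice. Day equals slide, so the day term is the replicate block. Deviations from arm means correlated between same-day arrays at a median of 0.129, over 0.1 in 12 of 18 pairs, so the pairing rests on the slide. Each arm had 1 position on every slide, so arm and position cannot be told apart. The median change of all genes was -0.10 for CTL minus untreated (0.08 with normexp). The fit was tested on simulated data. Promoter motifs were searched in the RefSeq table.

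The members, lists and tests were chosen with earlier results of these data known. Named genes were the 5 members with every probe, the 3 most correlated genes of each, up to 4 genes with the smallest p of a list, and others named for their role. Some genes that this rule names are not reported here. The number of arrays limits the precision.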

Additional observations from a re-analysis of the deposited data

Results flagged for a closer look

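The change after CTL transfer differed between days 3 to 7 and day 1 for 4 receptor genes by the interaction term of the limma fit. The difference was 3.41 log2 for Fcgr1, 2.57 for Fcgr3, 3.70 for Fcgr4 and 1.63 for Fcgr2b. Day 1 has 1 CTL and 1 untreated array, on a slide of its own.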

How the results depend on the processing

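Over the alternatives run, all 5 genes kept their call and direction in CTL minus untreated, in 11 of 11 settings each. In CTL + anti-IFNg minus CTL + IgG all 5 kept their direction in 11 settings and their call in 9. The calls were lost with all 14 arrays (0 of 5, and 2 genes in all) and without day 5. The all-14 fit gives CTL and untreated arms 1 effect over all days, day 1 included. Genes called, with leave-one-out ranges over days, were 5363 for CTL minus untreated (660 to 5111), 2 for CTL + IgG minus CTL (0 to 2), 2136 for CTL + anti-IFNg minus CTL + IgG (50 to 1376), 27 for CTL + anti-IFNg minus untreated (1 to 18) and 173 for the interaction (4 to 295). Members called ranged from 0 to 5 for CTL + anti-IFNg minus CTL + IgG and from 0 to 3 for the interaction.

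With normexp background correction the counts were 0 for CTL + IgG minus CTL, 645 for CTL + anti-IFNg minus CTL + IgG, 2 for CTL + anti-IFNg minus untreated and 43 for the interaction, with 0 members. CTL minus untreated then split into 2083 higher and 2551 lower, against 1722 and 3641, and CTL + anti-IFNg minus CTL + IgG into 140 and 505, against 1126 and 1010. Without the filter on dim probes they were 3296 for CTL minus untreated, 1144 for CTL + anti-IFNg minus CTL + IgG and 10 for CTL + anti-IFNg minus untreated, and the interaction called 2 members. With all 14 arrays they were 1837 for CTL minus untreated, 4 for CTL + IgG minus CTL and 0 for CTL + anti-IFNg minus untreated. With only the 2 arms compared they were 836, 0, 911 and 0 in the order above, and 0 for the interaction, with 0 members. With no replicate block (no day term) they were 4 for CTL + IgG minus CTL, 0 for CTL + anti-IFNg minus untreated and 4 for the interaction, with 0 members, and the paired fit changed no other count by over 1.5 times.

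Signs turned only for changes near 0. In CTL + IgG minus CTL these were Fcgr1 (0.0087 with normexp, 0.13 with 14 arrays), Fcgr4 (0.11 with 14 arrays) and Fcgr2b (0.20 with normexp, 0.017 with the mean of probes, 0.20 with 14 arrays, and from -0.14 to 0.15 with a day left out). In CTL + anti-IFNg minus untreated they were Fcgr4 (-0.11 with 14 arrays, and from -0.0044 to 0.77 with a day left out) and Fcgr1 against Fcgr2b (-0.16 with all days, and from -0.33 to 0.015 with a day left out). The cause of these differences was not tested.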
